A study of Mus musculus with 18 samples.

Results

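Fibroblast growth factor 2 (FGF2) was set directly against osteopontin (OPN) in fibroblasts of mouse paws, gene by gene. The comparison rests on 6 libraries: 3 of naive fibroblasts that received 10 ng/mL FGF2 and 3 of naive fibroblasts that received 50 ng/mL OPN, each as a single factor for 3 days. All genes that passed a filter on low counts entered, which left 15072 of the 32285 genes in the table. The study holds 18 libraries in 6 groups of 3, and every group is labelled WT in genotype and holds sorted synovial fibroblasts of the paw. Naive fibroblasts given both factors at these doses and naive fibroblasts left unstimulated serve below as levels to read the difference against, without a test. The remaining 6 libraries come from mice with arthritis set off by K/BxN serum, which carries antibodies that inflame the joints. They enter the filter, the scaling and the estimate of the spread, but neither of the means compared. On the 6 libraries compared alone, 14376 genes passed the filter. Age, sex, the sort gate, the time in culture and whether replicates are separate mice or separate cultures are not stated in the labels, so p-values measure the spread between these libraries, which may be technical. The 2 factors were used at 1 dose each, and the doses differ, so every difference belongs to these doses.

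FGF2 binds receptor tyrosine kinases of the FGFR family together with heparan sulfate and signals mainly through RAS and the kinase ERK. ERK switches on early response transcription factors and a set of inhibitors, the Sprouty and Spred proteins and the dual-specificity phosphatases, which dampen the same pathway. Osteopontin, the product of Spp1, is an acidic glycoprotein of bone and inflamed tissue that is bound by integrins, αvβ3 among them, and by CD44. Synovial fibroblasts line and support the joint, make its lubricant and collagenous matrix, and in arthritis can release proteinases that degrade cartilage.

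The FGF2 libraries held 28784279, 29950492 and 32160896 counts, and the OPN libraries held 40357342, 39458168 and 30759870. Levels are in CPM, read counts scaled to a common library total, on library sizes scaled by the trimmed mean of M-values over the genes kept, and differences are log2 fold changes of FGF2 over OPN ± SE, positive when FGF2 was higher. A value in parentheses after a gene is this log2 fold change, which passed the test unless a missing call is stated. Replicate libraries lay at a root mean square distance of 0.343 to 0.457 log2 units within the FGF2 group and 0.357 to 0.420 within the OPN group, against 1.11 to 1.29 between the groups. Replicate 2 of FGF2 stood furthest from its own group, at 0.443 and 0.457 from the other FGF2 libraries, which lay 0.343 apart. For the genes described below, values without that library are given where they change a call or move a called difference by more than 1.5-fold. On the first principal component of the 12 naive libraries, which held 60.9% of the variance, FGF2 libraries lay at -95.3 to -86.2, OPN libraries at 41.1 to 54.9, libraries with both factors at -11.0 to -4.2 and unstimulated libraries at 48.8 to 49.5. The unstimulated libraries lay within the range of the OPN libraries on this axis, and the FGF2 libraries lay furthest from both.

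Fibroblast transcripts were present in all 6 libraries. The pan-fibroblast list summed to 23266 to 25150 CPM with FGF2 and 52340 to 60851 CPM with OPN, with the collagen gene Col1a1 and Vim, which encodes the filament protein vimentin, among its highest members. Macrophage markers summed to 68.5 to 83.1 CPM with FGF2 and 66.0 to 91.3 CPM with OPN. Of their 14 members, 6 did not pass the filter. Among these, C1qa had no count in the 6 libraries. Ptprc, the common leukocyte antigen, reached at most 0.258 CPM, and Adgre1, the F4/80 antigen, reached at most 0.0667 CPM. Markers of neutrophils and lymphocytes summed to 1.64 to 2.88 CPM with FGF2 and 0.232 to 0.452 CPM with OPN, and S100a9, Cd3e, Cd3g, Ms4a1 and Nkg7 had no count. Apart from Ly6g, the members of this list stayed at or below 0.276 CPM. Endothelial markers summed to 83.8 to 98 CPM with FGF2 and 138 to 155 CPM with OPN, and most of this was Eng, a TGF-beta coreceptor that fibroblasts also make, at 76, 65.4 and 80.2 CPM with FGF2 and 144, 132 and 124 CPM with OPN. Tie1 had no count, and Cldn5 had a count in 1 OPN library only. In bulk RNA of this kind, fewer cells of a type and less RNA per cell cannot be told apart.

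Of 15072 genes tested, 9278 (61.6%) differed between FGF2 and OPN at an adjusted p below 0.05 by edgeR's quasi-likelihood test. Of these, 4745 (31.5%) were higher and 4533 (30.1%) lower with FGF2. A difference of at least 2-fold beside the call was found for 3159 genes (21.0%), 1441 of them higher (9.56%) and 1718 lower (11.4%). The 3 FGF2 libraries did not overlap with the 3 OPN libraries for 9987 genes (66.3%), with FGF2 above for 5033 (33.4%) and below for 4954 (32.9%). The median log2 fold change over all genes was 0.00, and its median SE was 0.10. At the extremes, 158 genes had a log2 fold change of at least 4 and 207 one of -4 or below. Among the 5794 genes that were not called, 2427 had a 95% interval of the difference that lay within 1.25-fold in either direction. The counts of list members below are to be read against 31.5% higher and 30.1% lower.

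**Figure D1:**
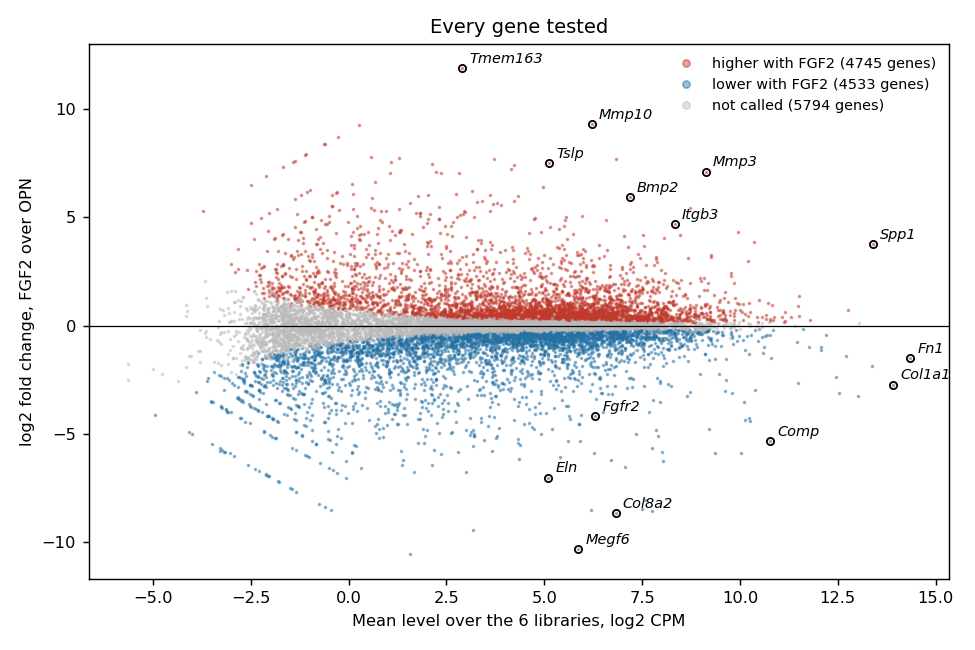
Difference against level for the 15072 genes tested. The horizontal axis gives the mean level over the 6 libraries as log2 CPM and the vertical axis the log2 fold change of FGF2 over OPN. Red points are the 4745 genes called higher with FGF2, blue points the 4533 called lower and grey points the 5794 not called. Mmp10 and Tmem163 stand at the top, Megf6 and Col8a2 at the bottom, and the abundant genes Spp1 above 0 and Col1a1 and Fn1 below 0.

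Among genes with a mean of at least 5 CPM, the largest differences in favour of FGF2 were those of Tmem163, a zinc transporter of vesicle membranes, and Mmp10, the proteinase stromelysin-2. Tmem163 (ENSMUSG00000026347, chromosome 1, 127486546 to 127679548 on GRCm38) had 12.2, 20.6 and 11.7 CPM with FGF2, against 0, 0 and 0 CPM with OPN. No OPN library held a single count, so the fold is a lower bound: against 3 counts over the OPN group, Tmem163 was at least 533-fold higher with FGF2. Its exons share 292 bases with those of Mgat5 on the opposite strand, and the labels do not state whether counting used strand. Mmp10 had 121, 204 and 119.9 CPM with FGF2, against 0.276, 0.129 and 0.301 CPM with OPN, a log2 fold change of 9.30 ± 0.30 (adjusted p = 1.01e-13). Its neighbour Mmp3, stromelysin-1, had 808, 1795 and 735 CPM with FGF2, against 7.89, 6.41 and 9.87 CPM with OPN, a log2 fold change of 7.12 ± 0.37 (adjusted p = 1.37e-09). FGF2 libraries lay above OPN libraries throughout for these genes, as the choice of genes required. Mmp3 and Mmp10 are paralogs, so reads of their most alike stretches could be split between them. Bmp2, a ligand that drives bone and cartilage formation, had 248, 369 and 239 CPM with FGF2, against 6.5, 4.64 and 2.51 CPM with OPN, and Nptx1, a secreted neuronal pentraxin, had 206, 276 and 194 CPM with FGF2, against 0.879, 1.52 and 0.736 CPM with OPN. These transcripts were abundant with FGF2 and rare with OPN. The proteoglycan Esm1, known from endothelium, had 24.7, 33.8 and 19.5 CPM with FGF2, against 0.0753, 0.232 and 0.0335 CPM with OPN. Tslp, a cytokine better known from epithelia, had 45.3, 123 and 38.2 CPM with FGF2, against 0.377, 0.412 and 0.335 CPM with OPN.

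The other 8 genes on the higher side were Cd300lb, an immunoglobulin-type receptor (7.43 on the log2 scale), the orphan receptor Gpr149 (7.23), Nwd2 (7.05), the serine protease Prss22 (7.05), the angiotensin II type 2 receptor Agtr2 (6.42), protein kinase C beta (Prkcb, 6.20), adenylyl cyclase 8 (Adcy8, 6.07) and neurexophilin 3 (Nxph3, 6.01). FGF2 replicate 2 held the highest level of all 15 genes. Without it Tslp stood at 6.78 and Agtr2 at 5.50, and both were still called. Leaving out a single OPN library also moved some of these sizes: without OPN replicate 1 Gpr149 stood at 8.19, without OPN replicate 2 Esm1 stood at 8.73, Cd300lb at 9.24 and Nxph3 at 6.66, and without OPN replicate 3 Nwd2 stood at 8.39, Prkcb at 7.56 and Agtr2 at 7.02.

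On the lower side, matrix genes held 6 of the 15 places: Col8a2, a chain of type VIII collagen, Abi3bp, Eln, the elastin gene, Fndc1 (-6.52), and Prelp (-6.24) and Aspn (-6.21), which encode small leucine-rich proteins. Megf6 and Tenm4 (-6.17), whose large products carry EGF-like repeats, stood beside them. Megf6 (ENSMUSG00000057751, chromosome 4, 154170730 to 154275713) had 0.133, 0 and 0.121 CPM with FGF2, against 108, 77.3 and 165 CPM with OPN, a log2 fold change of -10.34 ± 0.65 (adjusted p = 1.02e-08). Col8a2 had 0.367, 0.297 and 0.969 CPM with FGF2, against 233, 189 and 256 CPM with OPN, a log2 fold change of -8.66 ± 0.24 (adjusted p = 1.8e-14). Elastin transcripts were at 0.433, 0.529 and 0.575 CPM with FGF2, against 59.8, 48.5 and 94.8 CPM with OPN, a log2 fold change of -7.03 ± 0.34. Abi3bp had 1.27, 1.82 and 1.24 CPM with FGF2, against 324, 221 and 588 CPM with OPN. With FGF2 these matrix genes were all but silent, and with OPN they were well expressed. Ptx3, a soluble pattern recognition protein of the pentraxin family, had 1.57, 0.793 and 1.09 CPM with FGF2, against 409, 291 and 589.7 CPM with OPN. Ptx3 and Nptx1 are both pentraxins, and they stood on opposite sides.

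Lgr5, a receptor for R-spondins and a mark of several kinds of stem cell, had 0.133, 0.297 and 0.727 CPM with FGF2, against 129, 134 and 172 CPM with OPN, a log2 fold change of -8.50 ± 0.24. Pappa, a protease that frees insulin-like growth factors by cutting their binding proteins, had 2.4, 2.71 and 2.57 CPM with FGF2, against 141, 128 and 188 CPM with OPN. Cdsn, an adhesion protein of the cornified skin layer, had 1.27, 0.694 and 1.03 CPM with FGF2, against 343, 212 and 522 CPM with OPN. All 3 genes were close to absent with FGF2. The remaining genes were the ion pump gene Atp12a, the carbonic anhydrase gene Car6 (-6.78) and the sulfatase gene Arsi (-6.06). Atp12a held 2 counts over the FGF2 libraries and 1859 over the OPN libraries, a ratio of counts per size of 799 in favour of OPN with a 95% Poisson interval of 221 to 6601 that covers counting error only. Without FGF2 replicate 3, the difference stood at -12.16 for Atp12a, against -9.46 with all libraries, at -9.39 for Col8a2 and at -9.36 for Lgr5. Exons of Atp12a, Eln, Prelp and Tenm4 overlap genes on the opposite strand that did not pass the filter, and those of Aspn overlap Cenpp, at a mean of 2.74 CPM.

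**Figure D2:**
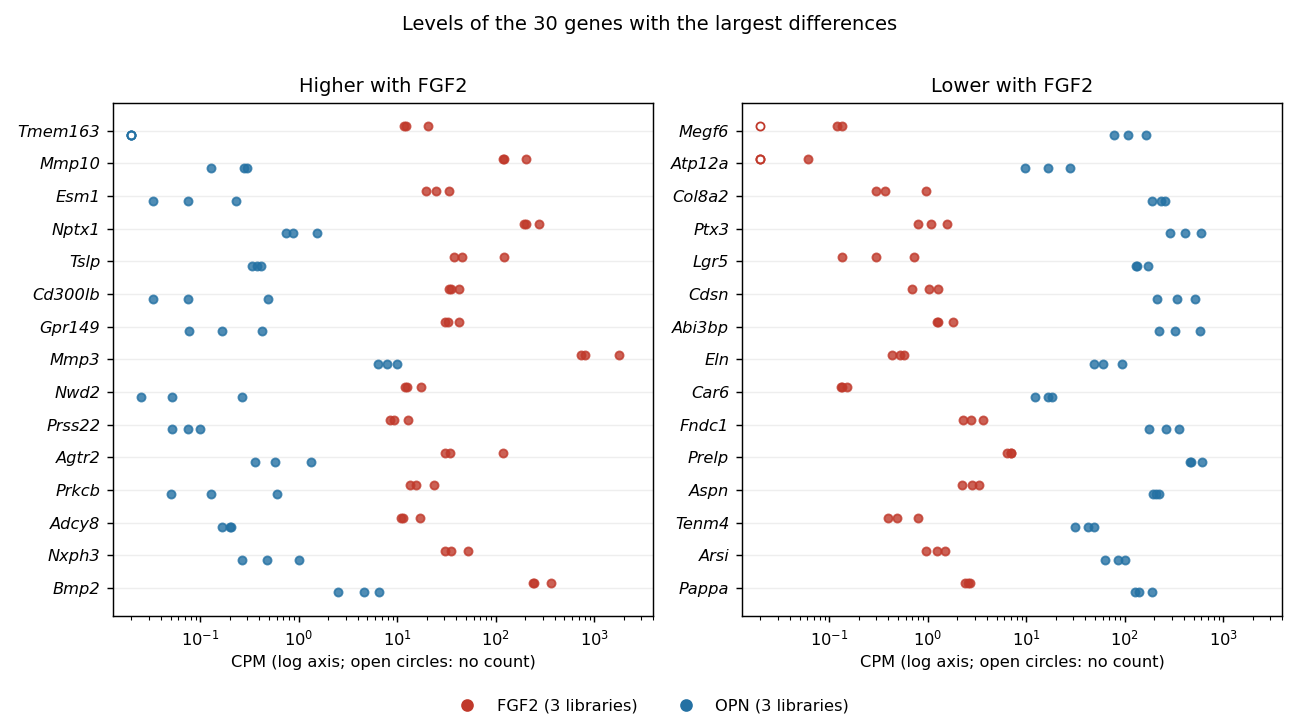
Levels of the 30 genes with the largest differences, 15 higher and 15 lower with FGF2. Each point is 1 library, on a log axis in CPM, with FGF2 libraries in red above OPN libraries in blue in each row, and open circles at the left edge mark libraries with no count. No row has overlapping groups, and Tmem163 has no count in any OPN library.

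For all 30 of these genes the unstimulated mean was nearer to the OPN mean than to the FGF2 mean on a log2(CPM + 0.1) scale. Mmp10 averaged 0.091 CPM in unstimulated cells and Bmp2 3.62 CPM. Col8a2 averaged 129 CPM there, Ptx3 608 CPM and Pappa 113 CPM. Cells given both factors lay between the FGF2 and OPN means for 29 of the 30 genes, and Car6 was the exception, at 0.136 CPM. Of the 15 genes that were higher with FGF2, 8 had a joint mean nearer to FGF2 and 7 nearer to OPN, and of the 15 that were lower, 6 had one nearer to FGF2 and 9 nearer to OPN. Eln lay higher with OPN than in unstimulated cells, at 67.7 CPM and 15 CPM, and so did Lgr5, at 145 CPM and 41.7 CPM.

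Shown are the 250 bases upstream of the annotated start for the 3 named genes whose window holds a loose AP-1 motif. All 3 were higher with FGF2, and AP-1 is the Fos and Jun dimer that ERK signalling feeds. The motif searched was TGANTCA, where N is any base, and it reads the same on both strands. It is looser than the usual AP-1 site, which has C or G in the middle. Mmp10 and Mmp3 held that site (TGAGTCA), whereas Nwd2 held TGATTCA, and the shares below count any middle base. The sequences are those of RefSeq on GRCm38.p6, plus strand, 5′ to 3′, with the motif in capitals, for Mmp10 at chr9:7502092-7502341, Mmp3 at chr9:7445572-7445821 and Nwd2 at chr5:63648853-63649102.
Mmp10: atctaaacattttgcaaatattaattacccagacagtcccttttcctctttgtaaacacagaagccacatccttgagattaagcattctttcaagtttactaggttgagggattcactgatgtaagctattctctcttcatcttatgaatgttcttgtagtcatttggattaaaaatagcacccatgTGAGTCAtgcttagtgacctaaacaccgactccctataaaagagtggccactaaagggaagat
Mmp3: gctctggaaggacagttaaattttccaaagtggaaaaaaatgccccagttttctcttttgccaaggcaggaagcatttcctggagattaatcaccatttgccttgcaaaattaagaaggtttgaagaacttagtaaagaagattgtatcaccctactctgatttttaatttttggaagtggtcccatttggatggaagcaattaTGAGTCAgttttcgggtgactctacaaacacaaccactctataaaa
Nwd2: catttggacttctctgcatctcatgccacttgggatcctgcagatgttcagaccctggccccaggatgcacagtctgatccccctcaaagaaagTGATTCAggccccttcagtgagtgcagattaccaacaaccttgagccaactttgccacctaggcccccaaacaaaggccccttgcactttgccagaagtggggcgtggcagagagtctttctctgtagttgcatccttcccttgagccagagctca
The motif began 63 bases before the start in Mmp10, 46 in Mmp3 and 156 in Nwd2, and a TATAAA box, which overlapped it in none of them, began 29 bases before the start in Mmp10 and 7 in Mmp3. Of the 15 named genes that were higher, 8 had a promoter in the table and 3 of these (37.5%) held the motif, against 0 of 9 named genes that were lower. Over all genes with a promoter, 2113 of 27025 (7.82%) held it, and among genes tested 674 of 11388 (5.92%) did. It stood in 120 of 1004 genes with a promoter (12%) among those at least 2-fold higher. Among those at least 2-fold lower it stood in 89 of 1201 (7.41%). A gene counted when any of its promoters held the motif. A match is a description of these letters and not evidence of a bound site.

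The inhibitors that ERK signalling induces against itself were higher with FGF2 almost as a block. Of 14 tested, 13 were higher and 1 lower, with a median log2 fold change of 2.79. Dusp6, the phosphatase that removes the activating phosphates from ERK, had 237, 293 and 221 CPM with FGF2, against 15.2, 17.5 and 9.7 CPM with OPN, a log2 fold change of 4.13 ± 0.16 (adjusted p = 1.94e-12). Spry4, a Sprouty protein, had 73.1, 91.2 and 67 CPM with FGF2, against 6.55, 7.31 and 5.02 CPM with OPN, and Spry2 had 119, 113 and 108 CPM with FGF2, against 14.2, 15.5 and 13.7 CPM with OPN. Every FGF2 library was more than 5-fold above every OPN library for these 3 genes. Dusp5 (4.23), Dusp4 (3.29) and Errfi1, an inhibitor of the EGF receptor (4.06), differed by similar amounts. Spred1 (2.03), Spred2 (1.77) and Spred3 (2.11), which block RAF activation, differed by less, and Dusp7 (0.75) and Il17rd (0.72) by least of the members that were higher. Dusp2 came to 4.79, but on 7 counts in all with OPN, and to 4.19 without OPN replicate 2 and 5.51 without OPN replicate 3. Spry1, also a Sprouty protein, was the one member on the other side, at 5.1, 5.88 and 4.88 CPM with FGF2, against 22.6, 21.3 and 17.4 CPM with OPN, a log2 fold change of -1.96 ± 0.13. For Dusp6 the OPN level was also below the unstimulated mean of 26.2 CPM, while for Spry4 it was above the unstimulated mean of 3.85 CPM.

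Transcription factors and other genes downstream of ERK followed, with 12 of 13 higher, none lower and a median of 1.72. The list also holds Ccnd1, Phlda1 and Ier3, which are not transcription factors. The ETS factors Etv1 (3.71 ± 0.19), Etv4 (3.56 ± 0.18) and Etv5 (1.72 ± 0.09) were all higher, as were Phlda1 (2.85 ± 0.13) and the AP-1 subunit Fosl1 (1.79 ± 0.14). Etv4 had 114, 120.3 and 119 CPM with FGF2, against 10.4, 13.1 and 6.16 CPM with OPN. Egr3, an early growth response factor, had 80.2, 76.6 and 67.7 CPM with FGF2, against 6.5, 6.33 and 5.19 CPM with OPN, and Ccnd1, the cyclin that carries growth factor signals into the cell cycle, had 1451, 1489.8 and 1462 CPM with FGF2, against 259, 352 and 216 CPM with OPN. The FGF2 libraries exceeded every OPN library at least 4-fold for these 3 genes. Myc, a driver of growth, was the single member without a call, at 53.6, 42.2 and 55.2 CPM with FGF2, against 54.3, 53.2 and 45 CPM with OPN, and its 95% interval ran from -0.27 to 0.24 (adjusted p = 0.92).

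Immediate early genes were higher with FGF2 in 15 of 19 cases and lower in 1, at a median of 0.89. Fos had 118, 91.9 and 124 CPM with FGF2, against 25.9, 23.5 and 22.5 CPM with OPN, a log2 fold change of 2.21 ± 0.10 (adjusted p = 2.41e-14), and Fosb (2.63 ± 0.28), Jun (1.77 ± 0.08) and Egr1 (1.29 ± 0.06) were higher with it. Nr4a1, an orphan nuclear receptor, had 152, 88.4 and 118 CPM with FGF2, against 10.5, 11.2 and 11.5 CPM with OPN, and its relative Nr4a3 was the one gene lower with FGF2, at -1.42. Here the unstimulated level did not lie near OPN: Fos averaged 111 CPM with FGF2 and 23.9 CPM with OPN, but 398 CPM with both and 316 CPM without stimulation, and Egr1 averaged 206, 84.1, 442 and 409 CPM in the same order. With either factor alone these transcripts thus stood below the unstimulated mean, and further below it with OPN. Jun lay above the unstimulated mean with FGF2 and below it with OPN, at 342 CPM with FGF2, 100.2 CPM with OPN and 198 CPM in unstimulated cells. The factors Klf2, Klf4 and Maff had no call, and the 95% interval of Klf4 ran from -0.28 to 0.19. Maff (0.16) was called without FGF2 replicate 2, at 0.31 (adjusted p = 0.0412).

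Among FGF ligands and receptors, 5 of 14 tested were higher with FGF2 and 6 lower. Fgfr1, the receptor with the highest level per length, had 479.9, 505 and 469 CPM with FGF2, against 316, 310.1 and 296 CPM with OPN, a log2 fold change of 0.66 ± 0.05. Fgfr2 went strongly the other way, with 8.07, 7.47 and 9.03 CPM with FGF2, against 145, 123 and 178 CPM with OPN, a log2 fold change of -4.18 ± 0.12 (adjusted p = 3.6e-17). In RPKM, which is CPM over the gene length in kilobases, Fgfr1 stood at 49.1 with FGF2 and 31.1 with OPN, Fgfr2 at 0.793 with FGF2 and 14.4 with OPN, and Fgfr3 at 0.196 with FGF2 and 1.31 with OPN. The excess of Fgfr1 over Fgfr2 was thus far larger with FGF2, and OPN libraries held more Fgfr2 than unstimulated ones, at 149 CPM against 66.2 CPM. The cells' own Fgf2 transcript had 433, 393 and 446 CPM with FGF2, against 122, 174 and 88.5 CPM with OPN, a log2 fold change of 1.72 ± 0.18, and the added protein contributes no RNA to this count. Its exons overlap Nudt6 on the opposite strand. Fgf10, a ligand of Fgfr2, averaged 13.1 ± 1.57 CPM with FGF2, against 2.83 ± 0.402 CPM with OPN (SD, n = 3 each), and Fgf1, at a low level, was higher too (4.12). Fgf7, keratinocyte growth factor, was lower, at 75.1, 65.5 and 74.1 CPM with FGF2, against 206, 218 and 190.4 CPM with OPN. Fgf21 had no count with FGF2 and 86 counts with OPN, at least 24.6-fold lower with FGF2, and Fgf9 had 2 counts with FGF2 and 53 with OPN, a ratio of 22.8 in favour of OPN (95% Poisson interval 6 to 193). Fgf5, Fgf18 and the decoy receptor gene Fgfrl1 had no call, and the interval of Fgfrl1 ran from -0.25 to 0.13. Without FGF2 replicate 2, Fgf5 (-0.46, adjusted p = 0.0408) and Fgfrl1 (-0.20, adjusted p = 0.0377) were called lower.

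Osteopontin's own gene was far higher with FGF2 than with added osteopontin. Spp1 (ENSMUSG00000029304, chromosome 5, 104435118 to 104441050) had 16579.9, 28019.8 and 16074 CPM with FGF2, against 1513, 1613 and 1359.7 CPM with OPN, a log2 fold change of 3.76 ± 0.16 (adjusted p = 3.19e-13). Spp1 took 1.65% to 2.83% of all counts with FGF2 and 0.132% to 0.159% with OPN, and unstimulated cells averaged 1422 CPM. Of the 12 genes for osteopontin and its receptors, 6 were higher, 3 lower and 3 without a call. Itgb3, the partner of αv in the classical osteopontin receptor, had 620.0, 632 and 616 CPM with FGF2, against 23.9, 27.2 and 20.5 CPM with OPN, a log2 fold change of 4.70 ± 0.08 (adjusted p = 3.93e-21). Cd44 had 882, 667 and 916 CPM with FGF2, against 256, 299.6 and 219 CPM with OPN, a log2 fold change of 1.67 ± 0.12. The groups were far apart for all 3 genes, and the OPN level lay near the unstimulated mean of 28.6 CPM for Itgb3 and 204 CPM for Cd44. Itgb5, another partner of αv, was lower, at 289, 297 and 299 CPM with FGF2, against 617, 628 and 610.0 CPM with OPN. Itgav, which encodes αv itself, had 361, 278 and 388 CPM with FGF2, against 318, 377 and 273 CPM with OPN, overlapping groups and an interval of -0.21 to 0.38. Itgb1 had no call either, with an interval of -0.02 to 0.26, but was called higher at 0.19 when counts were scaled by library totals alone (adjusted p = 0.0187), at 0.19 without FGF2 replicate 2 (0.0155) and at 0.17 without OPN replicate 2 (0.0446). In RPKM the order of the αv partners differed: Itgb3 stood at 106 and Itgb5 at 83 with FGF2, but Itgb3 at 4.05 and Itgb5 at 174 with OPN. Itga5, the fibronectin receptor chain (1.42 ± 0.08), and Itga4 (2.29 ± 0.20) were higher too, and Itga9 (-1.17 ± 0.10) and Itgb8 (-0.65 ± 0.15) were lower.

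**Figure D3:**
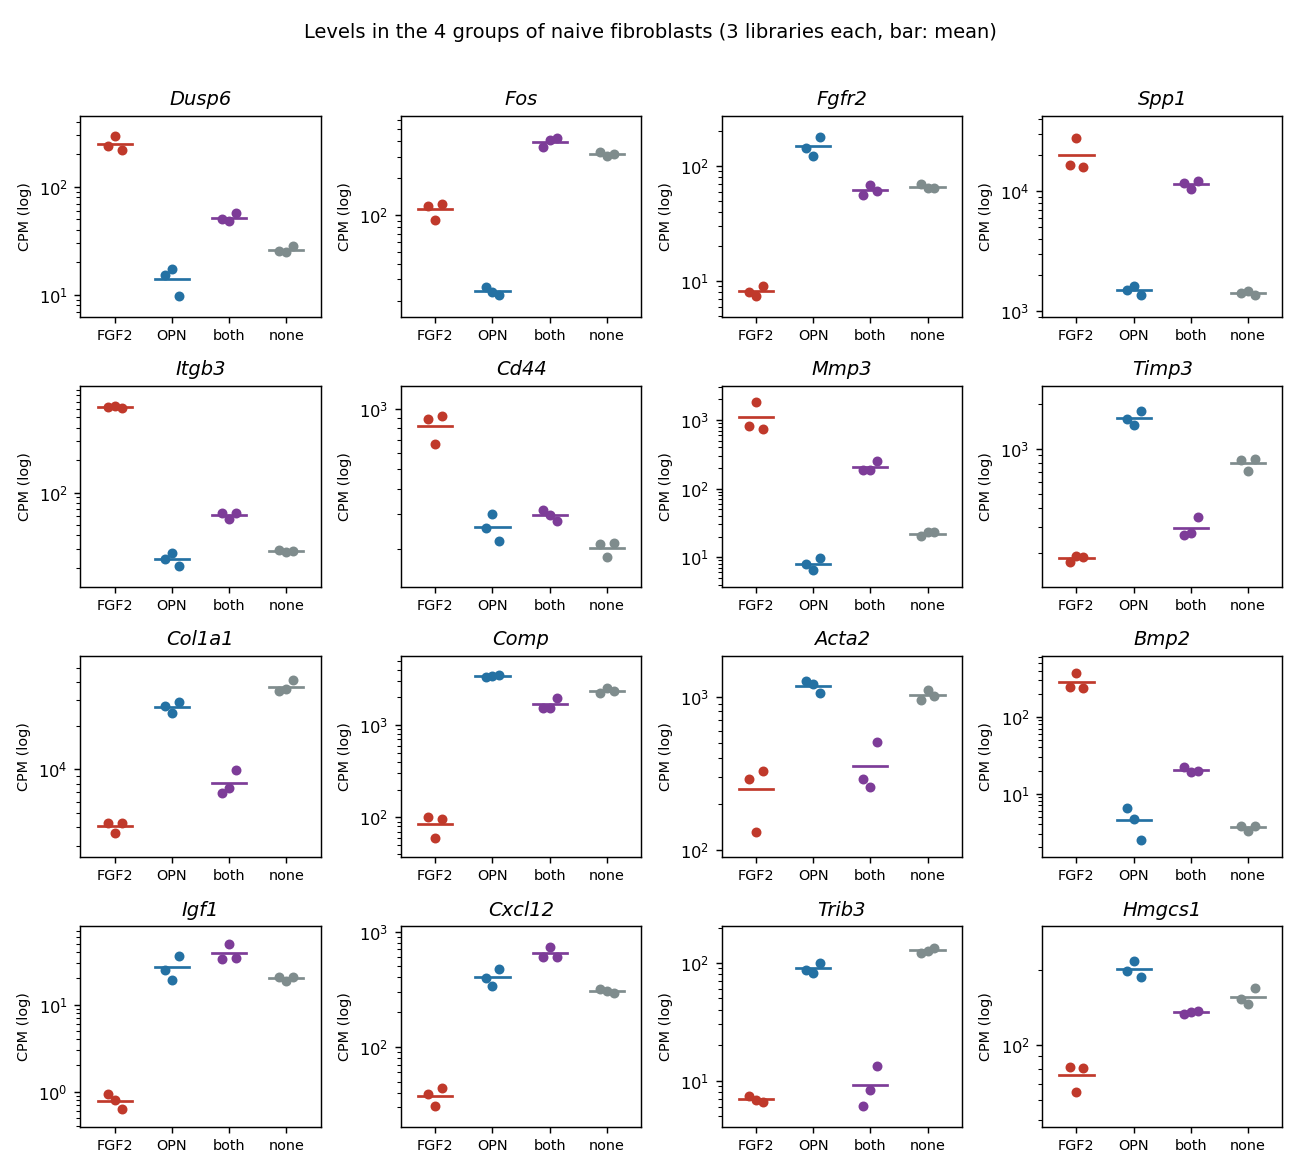
Levels of 16 genes in the 4 groups of naive fibroblasts, in CPM on log axes. Each point is 1 library and each bar the mean of 3 libraries, with FGF2, OPN, both factors and no stimulation running left to right. Spp1, Itgb3, Mmp3 and Bmp2 were highest with FGF2, Fos was lowest with OPN and highest with both factors, and Comp and Igf1 were lowest with FGF2.

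The matrix-degrading enzymes split into a small, steep group above and a broad group below. Of 23 metalloproteinases and inhibitors tested, 3 were higher with FGF2, 11 lower and 9 without a call. The 3 were Mmp10 and Mmp3, given above, and the collagenase gene Mmp13, with 346, 464 and 362 CPM with FGF2, against 170.3, 56 and 64.6 CPM with OPN, a log2 fold change of 2.01 ± 0.33 that came to 2.70 without OPN replicate 1. These 3 genes lie in the metalloproteinase cluster of chromosome 9. In RPKM, Mmp3 reached 618 with FGF2, of the order of Timp1 (696), against 4.47 with OPN, where Timp1 stood at 643. The aggrecanase gene Adamts5 was lower, at 25.6, 21.5 and 26.1 CPM with FGF2, against 353, 411 and 386 CPM with OPN, a log2 fold change of -3.97 ± 0.11 (adjusted p = 9.22e-18). Timp3, the inhibitor that binds to the matrix, was lower as well, at 174, 190.5 and 189 CPM with FGF2, against 1583, 1432 and 1791 CPM with OPN, a log2 fold change of -3.12 ± 0.12. Adamts9 (-2.59), Adamts2 (-1.91), Adamts12 (-1.88) and Mmp23 (-1.62) were lower by more than 2-fold. Neither Timp1, with an interval of -0.10 to 0.33, nor the membrane enzyme Mmp14, with one of -0.25 to 0.04, had a call. Without FGF2 replicate 2, Timp1 was called higher (0.24, adjusted p = 0.0295) and Mmp14 lower (-0.22, adjusted p = 0.00196).

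In the plasminogen system, 3 of 7 genes were higher and 2 lower. Plau, which encodes urokinase, had 353, 477 and 342 CPM with FGF2, against 59.2, 57.6 and 53.2 CPM with OPN, a log2 fold change of 2.78 ± 0.13, and its receptor Plaur had 130.4, 113 and 139 CPM with FGF2, against 31.4, 31.2 and 28.5 CPM with OPN, a log2 fold change of 2.07 ± 0.10. All FGF2 libraries lay above all OPN libraries for both genes. Serpinb2, a urokinase inhibitor, was higher (4.96 ± 0.37, and 5.59 without OPN replicate 2).

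Fibrillar collagen was lower with FGF2. Of 20 collagen chains, 14 were lower and 5 higher, with a median of -1.27. Col1a1 had 4255, 3686 and 4259.9 CPM with FGF2, against 27114, 24421 and 29046 CPM with OPN, a log2 fold change of -2.72 ± 0.12 (adjusted p = 3.5e-15). Col1a2 (-1.84 ± 0.09), Col5a1 (-2.66 ± 0.09), Col5a2 (-2.35 ± 0.10) and Col11a1 (-2.70 ± 0.15) differed alike, and Col3a1 less, at -0.98 ± 0.20. Col12a1, which coats collagen fibrils, had 129.6, 78.2 and 154 CPM with FGF2, against 2409.7, 1901 and 2582 CPM with OPN, a log2 fold change of -4.25 ± 0.27. The 5 on the higher side were the basement membrane chains Col4a1 (0.57) and Col4a2 (0.31), and Col6a3 (0.96), Col7a1 (0.74) and Col16a1 (0.24), each less than 2-fold. On the 6 libraries alone, Col4a2 (adjusted p = 0.0515) and Col7a1 (adjusted p = 0.0564) lost their calls, which left 3. Type VI collagen was thus divided among its own chains, since Col6a1 and Col6a2 were lower (-1.56 and -2.23). Unstimulated cells held more Col1a1 than either group, at a mean of 36971 CPM.

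Of 15 genes whose products modify or cross-link collagen, 12 were lower, 1 was higher and 2 had no call. Lox, the main cross-linking oxidase, had 1330.1, 942 and 1426 CPM with FGF2, against 10465, 10081 and 11519.7 CPM with OPN, a log2 fold change of -3.12 ± 0.13. Loxl2 (-2.41), the prolyl hydroxylase subunits P4ha2 (-1.77) and P4ha3 (-1.33), the lysyl hydroxylase Plod3 (-0.57) and the collagen chaperone Serpinh1 (-1.49) were also lower. Loxl3 was the exception, at 1166, 1067 and 1152 CPM with FGF2, against 535, 628 and 424 CPM with OPN, a log2 fold change of 1.09 ± 0.10.

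Elastic fibre genes and matrix glycoproteins had the lowest median of the pathway lists, -1.65, with 24 of 30 lower and 2 higher. Comp, which bridges collagen fibrils in cartilage and tendon, had 100.3, 59.7 and 94.9 CPM with FGF2, against 3321, 3443 and 3494 CPM with OPN, a log2 fold change of -5.33 ± 0.17 (adjusted p = 9.38e-15). Fmod, the fibril-regulating proteoglycan fibromodulin, had 36.4, 28.7 and 38.6 CPM with FGF2, against 1981, 1748 and 2407 CPM with OPN, a log2 fold change of -5.89 ± 0.21. Ogn (-4.98) and Omd (-5.29), of the same leucine-rich family, and Aspn, given above, were lower by more than 4 on the log2 scale. Thbs1 had 1772, 805 and 2121 CPM with FGF2, against 14250.1, 15205 and 15457 CPM with OPN, a log2 fold change of -3.26 ± 0.26. All these matrix genes separated the groups completely. Fibronectin transcripts (Fn1) were at 10198, 11865 and 10948 CPM with FGF2, against 29087, 29988 and 33841 CPM with OPN, a log2 fold change of -1.49 ± 0.11. The 2 members on the higher side were Ltbp1, which stores TGF-beta in the matrix (0.84 ± 0.08), and Tnc, tenascin-C (0.65 ± 0.08). Without FGF2 replicate 3 the count was 4, with Fbln1 (0.31, adjusted p = 0.0164) and Mfap2 (0.77, adjusted p = 0.0147) added. The proteoglycan genes Dcn, with 143, 448 and 132 CPM with FGF2, against 177, 121 and 252 CPM with OPN, and Lum, with 49.7, 204 and 45.5 CPM with FGF2, against 213, 136 and 309 CPM with OPN, had no call, at 0.40 (adjusted p = 0.397) and -1.14 (adjusted p = 0.0526), and FGF2 replicate 2 held the highest level of its group for both. Without that library Lum was called lower, at -2.20 (adjusted p = 2.88e-05), and Dcn turned to -0.41 with no call (adjusted p = 0.142). Lum was also called lower without OPN replicate 2 (-1.39, adjusted p = 0.0321), by DESeq2 (-1.15, adjusted p = 0.0332) and by limma-voom (-1.43, adjusted p = 0.0147).

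Contractile and TGF-beta target genes were lower in 16 of 19 cases, higher in 1, at a median of -1.31. Acta2, smooth muscle actin and a mark of myofibroblasts, had 290.4, 131 and 325 CPM with FGF2, against 1258, 1203 and 1059 CPM with OPN, a log2 fold change of -2.24 ± 0.30. Myl9 (-2.25 ± 0.28), Cnn1 (-2.35 ± 0.39) and the collagen-binding integrin Itga11 (-5.83 ± 0.20) were lower, and the matricellular genes Ccn1 (-1.31 ± 0.16) and Ccn2 (-0.96 ± 0.21) less so. FGF2 replicate 2 had the lowest Acta2, Myl9 and Cnn1 of its group. Tgfbi, a secreted TGF-beta target, was the gene on the higher side, at 260.3, 360.2 and 235 CPM with FGF2, against 65, 49.5 and 83.5 CPM with OPN. The direct TGF-beta targets Smad7, with an interval of -0.44 to 0.19, and Skil, with one of -0.17 to 0.26, had no call.

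**Figure D4:**
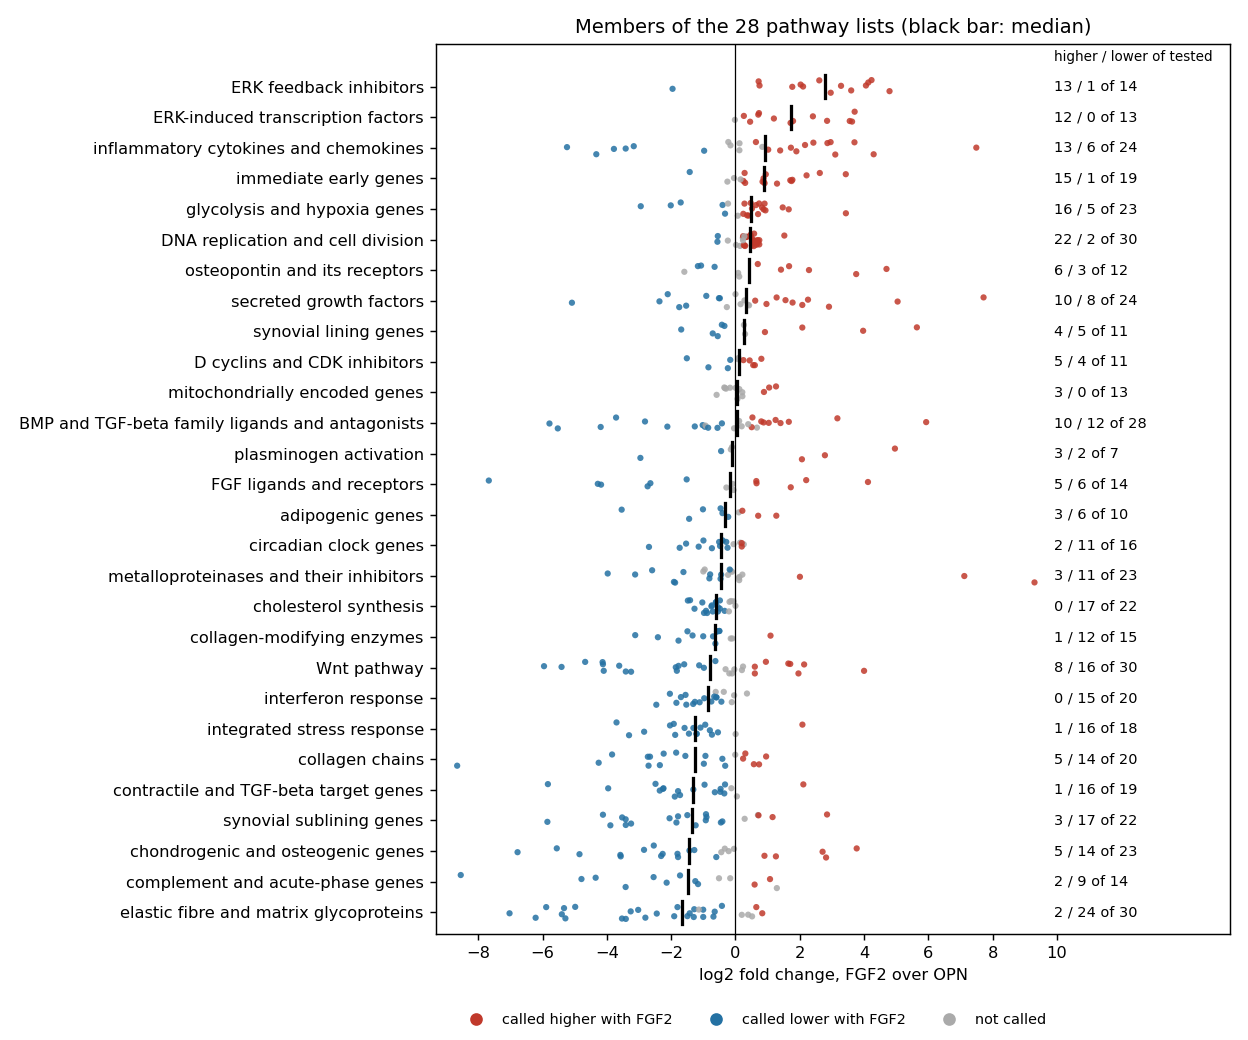
Log2 fold change of FGF2 over OPN for the tested members of 28 pathway lists. Each point is 1 gene, red when called higher with FGF2, blue when called lower and grey when not called, black bars mark list medians, and the numbers at the right give members called higher and lower of those tested. ERK feedback inhibitors stand at the top with a median of 2.79 and elastic fibre and matrix glycoproteins at the bottom with -1.65.

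Inflammatory mediators went both ways, with 13 of 24 tested higher, 6 lower and a median of 0.93. Ccl2, which draws monocytes, had 254, 432 and 245 CPM with FGF2, against 35.8, 36.3 and 35.9 CPM with OPN, a log2 fold change of 3.11 ± 0.20 (adjusted p = 6.05e-09). Ptges, the enzyme that makes prostaglandin E2, had 220.2, 351 and 217 CPM with FGF2, against 33, 31.5 and 36.7 CPM with OPN, a log2 fold change of 2.96 ± 0.16, and Ptgs2, the cyclooxygenase upstream of it, differed by 1.02 ± 0.19. The interleukin 6 family cytokines Lif (2.43 ± 0.13) and Il11 (2.17 ± 0.12) were higher, whereas Il6 was near the floor in both groups, at 0.6, 0.198 and 0.182 CPM with FGF2, against 0.352, 0.464 and 0.301 CPM with OPN. Il33, an alarmin, had 20.3, 102 and 17.4 CPM with FGF2, against 1.78, 2.45 and 2.91 CPM with OPN, a log2 fold change of 4.30 ± 0.62 that came to 3.00 without FGF2 replicate 2. Ccl11 likewise came to 2.68 without that library, against 3.70 ± 0.52 with it. On the lower side stood Cxcl12, the retention signal for leukocytes, with 38.7, 30.8 and 43.9 CPM with FGF2, against 399.9, 338 and 471 CPM with OPN, a log2 fold change of -3.41 ± 0.12. Cxcl14 (-3.16 ± 0.24), Cxcl5 (-5.24 ± 0.40) and Il1rn, the interleukin 1 receptor antagonist (-4.33 ± 0.30), were lower too. Il1b and Tnf did not pass the filter.

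Complement and acute-phase genes were lower in 9 of 14 cases and higher in 2, at a median of -1.48. One of the 2, Cp, which encodes ceruloplasmin (0.60), lost its call without FGF2 replicate 2 (0.21, adjusted p = 0.242 in edgeR's quasi-likelihood test). Cp also lost it without OPN replicate 1 (0.51, adjusted p = 0.0634) and on the 6 libraries alone (0.59, adjusted p = 0.0926). Ptx3 led them, and C1ra, a protease of the classical pathway, had 6.63, 10.1 and 6 CPM with FGF2, against 79.4, 66.4 and 96.5 CPM with OPN, a log2 fold change of -3.42 ± 0.17. Serping1, the C1 inhibitor, had 8.17, 12.8 and 10.0 CPM with FGF2, against 63.1, 40.6 and 77.7 CPM with OPN. C4b averaged 1.87 CPM with FGF2 and 51.7 CPM with OPN, a log2 fold change of -4.79 ± 0.43 that came to -5.43 without FGF2 replicate 2, with the caution that C4a is a near-identical copy. C3 was low in both groups, at 1.8, 3.73 and 1.27 CPM with FGF2, against 4.97, 3.58 and 7.76 CPM with OPN, while cells with both factors averaged 52.8 CPM and unstimulated cells 36.2 CPM. C3 lost its call without FGF2 replicate 1 (adjusted p = 0.0641), without FGF2 replicate 3 (0.0824) and without OPN replicate 3 (0.0794) in edgeR's quasi-likelihood test.

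No interferon response gene was higher with FGF2, and 15 of 20 tested were lower, at a median of -0.86. Tap1, the peptide transporter of antigen presentation, had 8, 9.82 and 9.84 CPM with FGF2, against 25, 26.6 and 28.3 CPM with OPN, a log2 fold change of -1.53 ± 0.10 (adjusted p = 2.63e-12). Ifi44 (-2.46 ± 0.26) and Ifih1 (-1.31 ± 0.13) were lower as well, and Ifit2 (24.4, 22.8 and 23.2 CPM with FGF2, against 23.9, 25.2 and 23.1 CPM with OPN) and Irf7 had no call.

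Secreted growth factors were higher in 10 of 24 cases and lower in 8. Among ligands of the EGF receptor, Hbegf, Ereg and Areg were higher, and Tgfa had no call, at 0.39 (adjusted p = 0.117), but was called without FGF2 replicate 1 (0.56, adjusted p = 0.0388). Hbegf had 227, 181 and 235 CPM with FGF2, against 53.2, 52.1 and 46.5 CPM with OPN, a log2 fold change of 2.08 ± 0.10, and Ereg differed by 2.26 ± 0.15. Areg differed by 5.05, but on 7 counts in the OPN group, and by 6.94 without OPN replicate 2. Vegfa, the main driver of vessel growth, had 361, 377 and 364 CPM with FGF2, against 126, 120.4 and 128 CPM with OPN, a log2 fold change of 1.56 ± 0.05 (adjusted p = 1.01e-16). Pdgfa was higher (1.78 ± 0.08), and Pdgfb (-0.91 ± 0.21), Pdgfc (-0.51 ± 0.07) and Pdgfd (-0.48 ± 0.08) were lower. The angiopoietins, ligands of the receptor Tek, were opposed too, with Angpt2 higher (2.91 ± 0.20) and Angpt1 lower (-2.36 ± 0.13). Igf1 had 0.933, 0.793 and 0.636 CPM with FGF2, against 24.7, 19.3 and 36.5 CPM with OPN, a log2 fold change of -5.09 ± 0.30. Csf1, the growth factor of macrophages, had 1941, 1408 and 2087 CPM with FGF2, against 1632, 1719.7 and 1511 CPM with OPN and no call, with an interval of -0.04 to 0.37, but was called higher without FGF2 replicate 2 (0.32, adjusted p = 0.000674). Il34, which shares the receptor of Csf1, was higher (0.97 ± 0.09). Hgf had no call and an interval of -0.19 to 0.20.

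Ligands and antagonists of the BMP and TGF-beta family split evenly, with 10 of 28 higher and 12 lower. Bmp2 and Bmp4, close relatives, stood at opposite ends: Bmp2 is given above, and Bmp4 had 0.5, 0.297 and 0.545 CPM with FGF2, against 27.7, 19.1 and 28.3 CPM with OPN, a log2 fold change of -5.78 ± 0.24. Antagonists split as well, since Grem1 had 1083, 1146 and 1064 CPM with FGF2, against 122, 137 and 106 CPM with OPN, a log2 fold change of 3.17 ± 0.09, Fst was higher (1.04 ± 0.08), and Chrdl1 (-5.53 ± 0.19), Chrd (-2.12 ± 0.11) and Nog (-2.81 ± 0.31) were lower. Among the TGF-beta isoforms Tgfb1 was higher (1.25 ± 0.07), and Tgfb2, with 3.77, 8.2 and 3.48 CPM with FGF2, against 94.9, 82.1 and 104 CPM with OPN, and Tgfb3 (-1.26 ± 0.07) were lower. The BMP targets Id1 (0.88 ± 0.14) and Id3 (-0.56 ± 0.07) differed in opposite directions, and Id2 had no call except with scaling by library totals alone (0.18, adjusted p = 0.0363).

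The Wnt pathway was lower in 16 of 30 cases and higher in 8, at a median of -0.80. R-spondins, which raise Wnt receptor levels through Lgr5 and its relatives, were lower together with Lgr5: Rspo2 had 2.5, 1.52 and 1.85 CPM with FGF2, against 45.7, 47.6 and 56.6 CPM with OPN, Rspo3 2.8, 2.74 and 3.36 CPM with FGF2, against 47.6, 39.9 and 65.7 CPM with OPN, and Rspo1 differed by -1.85 ± 0.23. Wnt16 had 0.733, 1.19 and 0.818 CPM with FGF2, against 39.3, 29.8 and 47.8 CPM with OPN, a log2 fold change of -5.41 ± 0.20. Wnt4 held 1 count with FGF2 and 97 with OPN, a ratio of 83.4 in favour of OPN (95% Poisson interval 14.6 to 3326). Secreted inhibitors were divided, with Sfrp1 (-3.41 ± 0.34), Sfrp2 (-4.12 ± 0.35), Dkk3 (-3.25 ± 0.16) and Wif1 (-3.61 ± 0.29) lower and Dkk2 (1.65 ± 0.08) and Sfrp4 (1.96 ± 0.26) higher. The nuclear effectors Tcf7 (1.71 ± 0.14) and, at a low level, Lef1 (2.14, or 2.76 without OPN replicate 1) were higher. Axin2, a general target of the pathway, had 6.7, 10.1 and 5.18 CPM with FGF2, against 5.95, 3.91 and 4.55 CPM with OPN. It was called (0.60 ± 0.20, adjusted p = 0.0132) but lost the call without FGF2 replicate 2 (adjusted p = 0.165) without OPN replicate 2 (0.0718) and on the 6 libraries alone (0.0766) in edgeR's quasi-likelihood test.

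Genes of DNA replication and division were higher in 22 of 30 cases and lower in 2, but by small amounts, at a median of 0.47. Their summed level was 1590 to 2136 CPM with FGF2, 1390 to 1577 CPM with OPN and 1484 to 1617 CPM in unstimulated cells. FGF2 replicate 2 held the lowest sum with FGF2. Calls of Mcm3, Gins2, Cdk1 and Top2a were lost without FGF2 replicate 1 and without FGF2 replicate 3. Cdt1, which licenses replication origins, was the one member past 2-fold, at 44.9, 50.3 and 41.6 CPM with FGF2, against 15.2, 18.2 and 14.1 CPM with OPN, a log2 fold change of 1.52 ± 0.10. Ccnb2 (0.74 ± 0.09), Aurkb (0.74 ± 0.10) and Mcm6 (0.69 ± 0.09) were among the largest of the other differences. E2f1 (0.47 ± 0.07) and Ccna2 (0.47 ± 0.12) stood near the median. Mki67, the common mark of cycling cells, had 118, 90.4 and 119 CPM with FGF2, against 94.6, 94.7 and 87.8 CPM with OPN. Its log2 fold change was 0.24 ± 0.09 (adjusted p = 0.0259 in edgeR's quasi-likelihood test). Mki67 missed the threshold without FGF2 replicate 1 (0.124), FGF2 replicate 3 (0.13) or OPN replicate 3 (0.0927). It also did so on the 12 naive libraries (0.0748), on the 6 libraries alone (0.0797) and at a mean of at least 5 CPM (0.0591). FGF2 replicate 2 was the lowest of its group for it. Ccne1 (-0.55 ± 0.10) and Ccne2 (-0.56 ± 0.15), the cyclins of S phase entry, were lower. D cyclins divided: beside Ccnd1, which was higher, Ccnd2 had 486, 393 and 476 CPM with FGF2, against 799, 839.7 and 785 CPM with OPN, a log2 fold change of -0.84 ± 0.08. Of the inhibitors, Cdkn2a was higher, at 119.9, 169.6 and 114 CPM with FGF2, against 73.8, 86 and 70.8 CPM with OPN, and Cdkn1a had no call, with an interval of -0.02 to 0.22, but was called at 0.16 with scaling by library totals alone (adjusted p = 0.00899).

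Genes of the integrated stress response, which the factor ATF4 drives when amino acids run short, were lower in 16 of 18 cases and higher in 1, at a median of -1.26. Trib3 had 7.43, 6.78 and 6.54 CPM with FGF2, against 87.4, 82.4 and 99.6 CPM with OPN, a log2 fold change of -3.70 ± 0.19 (adjusted p = 1.36e-10). Ddit3 had 12.5, 11.5 and 10.3 CPM with FGF2, against 82, 78.6 and 84.4 CPM with OPN, a log2 fold change of -2.84 ± 0.08, and Atf4 itself differed by -1.20 ± 0.07. Amino acid genes of the same response, Asns (-1.58 ± 0.11), Slc7a11 (-2.03 ± 0.10) and Slc7a5 (-1.31 ± 0.17), were lower. Phgdh, the entry enzyme of serine synthesis, went the other way, at 862, 703 and 937 CPM with FGF2, against 202, 206 and 182 CPM with OPN, a log2 fold change of 2.08 ± 0.12, although Psat1, the next enzyme of that route, was lower (-0.54 ± 0.13). For Trib3 and Phgdh unstimulated cells stood nearer to OPN than to FGF2, at 128 CPM and 258 CPM. The whole list summed to 3369 to 3500 CPM in unstimulated cells and 2649 to 2748 CPM with OPN. It summed to 1639 to 2038 CPM with FGF2 and 1057 to 1364 CPM with both factors.

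Cholesterol synthesis was lower in 17 of 22 cases and higher in none, at a median of -0.60. Hmgcs1, an early enzyme of the pathway, had 81.4, 64.9 and 81.1 CPM with FGF2, against 199, 217 and 188 CPM with OPN, a log2 fold change of -1.41 ± 0.08. Sc5d (-1.48 ± 0.07) and Cyp51 (-1.27 ± 0.08), enzymes of later steps, were lower by similar amounts. Srebf2, which encodes the transcription factor of the pathway, had no call, and its interval ran from -0.11 to 0.12.

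Glycolysis and hypoxia genes were higher in 16 of 23 cases and lower in 5, at a median of 0.48. Their summed level was 12883 to 13583 CPM with FGF2, 8558 to 8765 CPM with OPN and 13152 to 14574 CPM in unstimulated cells. In this sum the unstimulated libraries thus lay with FGF2, and OPN lay below both. The glucose transporter gene Slc2a1 had 255, 276 and 243 CPM with FGF2, against 82.6, 77 and 85.7 CPM with OPN, a log2 fold change of 1.66 ± 0.07 (adjusted p = 1.7e-15). Glycolytic enzymes that were higher differed by less than 2-fold, such as Gpi1 (0.94 ± 0.08), Pkm (0.91 ± 0.08) and Ldha (0.64 ± 0.09), and the regulator Pfkfb3 was lower (-2.01 ± 0.13). Hypoxia-responsive genes outside glycolysis were divided, with Ankrd37 higher (3.44 ± 0.24) and Adm (-2.94 ± 0.20) and Ndrg1 (-1.70 ± 0.13) lower.

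Fibroblast state markers also differed. Of 22 genes typical of the synovial sublining, 17 were lower with FGF2 and 3 higher, at a median of -1.37, whereas lining genes split into 4 higher and 5 lower of 11 tested. Gas6, a ligand of TAM receptors, had 158, 222 and 154 CPM with FGF2, against 1922, 1693 and 2512 CPM with OPN, a log2 fold change of -3.52 ± 0.14. Thy1, the usual sublining marker, had 246, 267 and 247 CPM with FGF2, against 456, 457 and 526 CPM with OPN, a log2 fold change of -0.92 ± 0.08. Cd34, also a sublining marker, was higher, at 224, 319 and 227 CPM with FGF2, against 27.1, 50.9 and 28.4 CPM with OPN, a log2 fold change of 2.85 ± 0.21. Of the lining genes, Prg4, the lubricant lubricin, was lower, at 951, 1310.5 and 963 CPM with FGF2, against 1896, 1685 and 1676 CPM with OPN, a log2 fold change of -0.70 ± 0.11, while Clic5 (5.65 ± 0.26) and the hyaluronan synthase Has1 (3.97 ± 0.26) were higher. Within the pan-fibroblast list, 6 of 15 were higher and 5 lower. Pdpn, a surface glycoprotein of activated fibroblasts, had 801, 874 and 811 CPM with FGF2, against 179.8, 197 and 171 CPM with OPN, a log2 fold change of 2.18 ± 0.06. The PDGF receptors diverged, with Pdgfra at 382, 443 and 364 CPM with FGF2, against 179, 171 and 208 CPM with OPN and Pdgfrb at 307, 272 and 314 CPM with FGF2, against 886, 878 and 916 CPM with OPN. Pdgfra was thus higher and Pdgfrb lower with FGF2.

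Cartilage and bone genes were lower in 14 of 23 cases and higher in 5, at a median of -1.43. Sox9, the master factor of chondrocytes, was higher, at 149.9, 156 and 139 CPM with FGF2, against 58.8, 56 and 71.3 CPM with OPN, a log2 fold change of 1.26 ± 0.09, and its partner Sox5 was higher as well (2.71 ± 0.10), but Sox6 was lower (-2.54 ± 0.15). The cartilage matrix gene Col2a1 was lower, at 41.7, 20.0 and 52.4 CPM with FGF2, against 172, 203 and 174 CPM with OPN, a log2 fold change of -2.26 ± 0.26, and Col10a1, the collagen of hypertrophic cartilage, was higher, at 165, 197 and 172 CPM with FGF2, against 28.2, 26.4 and 20.8 CPM with OPN, a log2 fold change of 2.82 ± 0.12. Alpl, the phosphatase of mineralising cells, had 0.133, 0.793 and 0.212 CPM with FGF2, against 25.3, 8.37 and 19.9 CPM with OPN, a log2 fold change of -5.56 ± 0.51 that came to -6.64 without FGF2 replicate 2. Tnfrsf11b, which encodes the decoy osteoprotegerin, was lower (-1.78 ± 0.13), and Tnfsf11, which encodes RANKL, had no call, at 4.4, 4.26 and 5.03 CPM with FGF2, against 6.76, 4.43 and 7.53 CPM with OPN, a log2 fold change of -0.44 (adjusted p = 0.0837). Tnfsf11 was called lower without OPN replicate 2 (-0.64, adjusted p = 0.01) and by DESeq2 (-0.46, adjusted p = 0.0311).

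Some genes listed as markers of other cell types differed, and other members of the same lists stayed near 0 or had no call. Of 8 macrophage markers tested, 4 were higher and 4 lower. Cd14, a lipopolysaccharide coreceptor, had 43, 47.2 and 41.2 CPM with FGF2, against 4.6, 3.5 and 2.84 CPM with OPN, a log2 fold change of 3.57 ± 0.12. Lyz2 had 0.8, 0.231 and 0.697 CPM with FGF2, against 9.92, 8.16 and 11.9 CPM with OPN, a log2 fold change of -4.10 ± 0.26. Of 7 endothelial markers tested, 3 were higher (Kdr, Cdh5 and Esam) and 2 lower (Tek and Eng). Kdr, the main VEGF receptor, had 8.23, 9.98 and 9.03 CPM with FGF2, against 1.28, 2.21 and 1.17 CPM with OPN. Over the alternative fits, Cdh5 stood at 2.09 to 2.93 and Esam at 3.22 to 3.42. Tek had 1.37, 1.06 and 0.909 CPM with FGF2, against 8.44, 11.5 and 10.7 CPM with OPN. Pecam1 stayed at or below 0.515 CPM in the 6 libraries. Of 8 pericyte markers tested, 1 was higher and 5 lower: Rgs5 had 26.4, 69.8 and 27.1 CPM with FGF2, against 3.84, 3.45 and 4.85 CPM with OPN, a log2 fold change of 3.35 ± 0.36 that came to 2.74 without FGF2 replicate 2, and Notch3 differed by -1.58 ± 0.12. Without FGF2 replicate 2, Cspg4 was called higher as well (0.43, adjusted p = 0.00398), which made 2. Ly6g, a neutrophil marker in blood and 1 of 2 tested in its list, had 2.27, 2.58 and 1.45 CPM with FGF2, against 0.0251, 0 and 0.134 CPM with OPN and was called higher (5.38, and 6.98 without OPN replicate 3). Schwann cell markers were higher in 2 and lower in 3 of 8 cases and summed to 63.3 to 85.4 CPM with FGF2 and 70.1 to 81.4 CPM with OPN. Skeletal muscle markers (0 higher and 2 lower of 3 tested) summed to 3.97 to 12.3 CPM with FGF2 and 14.6 to 18.2 CPM with OPN. Keratinocyte and erythroid markers, with no call in 1 tested, summed to 3.04 to 3.73 CPM with FGF2 and 2.76 to 3.45 CPM with OPN. Pericyte and smooth muscle markers summed to 271 to 369 CPM with FGF2 and 269 to 318 CPM with OPN. The part of other cells in any difference was not tested.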

How the data were processed

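RNA was measured in 18 libraries, of which 6 were compared. Per the labels' protocols, total RNA was column-purified and sequenced as paired-end reads on a NovaSeq X Plus. The authors deposited 1 table of read counts per gene. STAR, featureCounts and the builds GRCm38 and mm10 are named in the submitters' processing notes. No source used here gives versions, annotation release or strand setting. If strand was ignored, overlapping genes on opposite strands share reads.

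Counts were fitted with edgeR 4.0.16 in R 4.3.3: filterByExpr on the 6 groups, TMM scaling, 1 mean per group over all 18 libraries, robust quasi-likelihood F test of FGF2 minus OPN, two-sided, Benjamini-Hochberg adjustment over 15072 genes, called below 0.05. SEs come from the F statistic and the fitted biological coefficient of variation was 7.99%. A level of 3 counts, the floor, was 0.0743 to 0.109 CPM per library, and intervals on counts cover counting error only. Identifiers without a symbol held 0.0294% of counts. Symbols were matched by identifier to a reference name table for 32158 of 32285 identifiers, and 611 of 614 list genes were matched and 564 tested. Exons were taken from the coordinates in the count table, as were the gene lengths behind RPKM, and promoters from RefSeq. On simulated counts for 14665 genes, the FGF2 minus OPN fit called 99 of 100 genes changed by 1 on the log2 scale, 85 of 100 changed by 0.5 and 5 of 14465 unchanged ones. The simulation gave every gene the same spread, held no outlying library and changed no gene of very low level. These rates therefore check the fit and need not hold for the measured libraries.

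Named genes were the 15 largest differences in each direction among called genes with a mean of at least 5 CPM over the 6 libraries and no overlap between groups, passing over predicted genes, and the members of the lists. The comparison, the 36 gene lists and the tests were chosen with earlier results of these data known, so no list is independent support for its direction. Alternatives were limma-voom 3.58.1, DESeq2 1.42.0, other scalings, filters and sets of libraries, the replicate number as a block, and leaving out each replicate. Some members of the lists are counted in the totals but not reported here by name.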

Additional observations from a re-analysis of the deposited data

How the results depend on the processing

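The count of 9278 genes called stayed within 1.5-fold of itself under every alternative run: 9340 with scaling by library totals alone, 9265 with DESeq2's size factors in edgeR, 9454 without the filter, 7063 of 10601 genes with at least 5 CPM, 9268 with DESeq2, 9328 with limma-voom, 8860 on the 12 naive libraries, 8753 on the 6 libraries compared and 8615 to 9026 when 1 library was left out. Genes at least 2-fold apart numbered 1472 of the 10601 with at least 5 CPM, 758 higher and 714 lower. In the reported fit they numbered 3159 of 15072, 1441 higher and 1718 lower. The 2-fold count thus fell by a larger share than the number of genes tested, and more so on the lower side. No gene called both in the reported fit and in an alternative changed direction. Scaling by library totals alone moved the median of all genes to 0.0661 and the share of higher calls to 57.5%, against 51.1% in the reported fit. The labels give both groups replicate numbers 1 to 3, but same-numbered libraries did not deviate together (r = 0.00506, -0.104 and -0.102). With 3 libraries a group, these values cannot settle whether same-numbered libraries share a preparation. Among the naive groups, replicate 3 had the lowest mitochondrial share with FGF2 (0.477%), both factors (0.455%) and no stimulation (0.374%), but not with OPN (0.628%). A shared preparation was not tested. With the replicate number as a block, 9182 genes were called, 4684 higher and 4498 lower, and Tnfsf11 (-0.45, adjusted p = 0.048) and mt-Nd5 (-0.63, adjusted p = 0.0159), which had no call in the reported fit, were called lower. Without the filter, Lum, Dcn, Klf2, Per1, Tnfsf11 and mt-Nd5 were called, and 3 mitochondrial genes were lower, against none. The 30 named genes kept their direction and their call under all 450 values computed. Hlf, a clock output gene without a call (0.15), reversed to -0.97 without FGF2 replicate 2 (adjusted p = 0.0281 in edgeR's quasi-likelihood test), and the cause was not tested. Its values ranged over -0.97 to 0.59 when 1 library was left out. Of 1080 counts per list and setting, 35 moved by more than 1.5-fold. Differences resting on fewer than 10 counts in 1 group, as for Atp12a, Dusp2, Areg and Wnt4, are limited by depth.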

Other observations

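Circadian clock genes were lower with FGF2 in 11 of 16 cases and higher in 2, at a median of -0.44. The 2 were Arntl (0.20) and Bhlhe40 (0.20), and neither kept its call on the 12 naive libraries (adjusted p = 0.0681 and 0.0595 in edgeR's quasi-likelihood test). Both also lost it without FGF2 replicate 1 (0.088 and 0.122) and without OPN replicate 3 (0.152 and 0.0522). Arntl alone lost it without FGF2 replicate 3 (0.0924), on the 6 libraries compared (0.0632), without the filter (0.0892) and at a mean of at least 5 CPM (0.0567). Npas2, a partner of Bmal1, had 0.667, 0.826 and 0.636 CPM with FGF2, against 5.27, 2.47 and 6.12 CPM with OPN, a log2 fold change of -2.69 ± 0.31, and Ciart, a repressor of the clock, had 2, 1.92 and 1.97 CPM with FGF2, against 6.66, 6.39 and 6.56 CPM with OPN, a log2 fold change of -1.73 ± 0.15. The groups did not overlap for either gene. Per2 (-1.53 ± 0.12) and Dbp (-0.99 ± 0.11) were lower on the log2 scale too, and Per1 and Cry1 had no call. Per1 (0.26) was called higher without FGF2 replicate 2 (0.39, adjusted p = 0.00481), without OPN replicate 3 (0.35, adjusted p = 0.0204) and with scaling by library totals alone (0.33, adjusted p = 0.0301). Adipogenic genes were lower in 6 of 10 cases and higher in 3. Cebpa, a driver of fat cell differentiation, had 75.5, 83.2 and 71.9 CPM with FGF2, against 30.1, 35.3 and 29.9 CPM with OPN, a log2 fold change of 1.27 ± 0.08, whereas Klf15, which promotes fat cell differentiation as well, had 0.433, 0.793 and 0.515 CPM with FGF2, against 6.45, 6.03 and 7.9 CPM with OPN, a log2 fold change of -3.54 ± 0.24. Adipoq and Lep, which mark mature fat cells, had 1 count and none over the 6 libraries.

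Of 13 transcripts encoded by mitochondria, 3 were higher and none lower. One of the 3, mt-Co2 (0.89), lost its call without FGF2 replicate 1 (adjusted p = 0.0609), FGF2 replicate 2 (0.112), OPN replicate 1 (0.104) or OPN replicate 3 (0.0838), and mt-Nd5 (-0.58) was called lower on the 6 libraries compared (adjusted p = 0.0293). In the reported fit mt-Atp6 had the largest called difference, at 9.5, 11.9 and 8.15 CPM with FGF2, against 2.96, 5.56 and 3.71 CPM with OPN. The mitochondrial share of all counts was 0.708%, 0.758% and 0.477% with FGF2 and 0.601%, 0.754% and 0.628% with OPN, so the groups overlapped. FGF2 replicate 2 departed from the other FGF2 libraries in genes on both sides of the comparison. It held 123 CPM of Tslp, against 45.3 and 38.2 CPM in FGF2 replicates 1 and 3, 102 CPM of Il33 against 20.3 and 17.4 CPM, and 204 CPM of Lum against 49.7 and 45.5 CPM. It held 131 CPM of Acta2, against 290.4 and 325 CPM in FGF2 replicates 1 and 3.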
